A study of Mus musculus with 6 samples.

Results

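The genes of the melanocyte lineage were followed in whole B16-F10 tumors: 10 genes of the 21358 entries listed, a list of names set by lineage role with earlier results of these data known. They were the lineage regulators Mitf and Sox10, the melanosome structural genes Pmel and Mlana, the melanin synthesis enzymes Tyr, Tyrp1 and Dct, the melanosomal transporters Slc45a2 and Oca2, and the melanosomal receptor Gpr143. B16-F10 is a single pigmented melanoma line derived from C57BL/6 mice, and it was grown subcutaneously in C57BL/6 hosts. Every mouse received total body irradiation and then pmel-1 splenocytes, activated in culture with gp100 peptide, whose CD8 T cells carry a transgenic receptor for gp100, the protein encoded by Pmel. After this adoptive cell transfer (ACT), 1 group of 3 mice was treated with 0.4 mg/kg of IL-2 daily for 3 days, repeated in cycles of 9 days (ACT + IL-2). The other group of 3 mice was treated once per cycle with NKTR-214 at 0.8 mg/kg, a drug made of IL-2 carrying releasable polyethylene glycol chains (ACT + NKTR-214). IL-2 was injected intraperitoneally and NKTR-214 intravenously. Agent, dose, schedule and route thus differed together and cannot be told apart, and no untreated tumors were analysed here. Tumors were taken at day 12 and RNA was sequenced from the whole tumor, 1 library per tumor.

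MITF is the basic helix-loop-helix transcription factor that directs melanocyte identity, and it activates pigment genes through short E-box motifs near their starts. SOX10, a neural crest factor, together with PAX3 switches on Mitf. The pigment genes act in the melanosome, an organelle in which PMEL forms the fibrils on which melanin is laid down, and several of their products, gp100 and the TYRP2 protein encoded by Dct among them, are antigens that T cells recognise on melanoma cells.

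Windows of the 250 bases before the start were read from RefSeq (GRCm38.p6) for 5 of the 10 genes, Tyr, Tyrp1, Dct, Oca2 and Mitf. They are shown because MITF is known to bind CATGTG, a motif that 4 of these 5 genes carried. Capitals mark CATGTG or its reverse complement CACATG, and the sequence runs 5′ to 3′ on the strand of the gene. Of the 3 windows of Mitf, the one farthest downstream is given.
Tyr (chr7:87493513-87493762, minus strand): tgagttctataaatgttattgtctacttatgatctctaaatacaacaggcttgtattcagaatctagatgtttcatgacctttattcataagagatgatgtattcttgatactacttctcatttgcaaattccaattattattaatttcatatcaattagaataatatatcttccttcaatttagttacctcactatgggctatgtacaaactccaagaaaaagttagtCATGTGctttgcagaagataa
Tyrp1 (chr4:80833963-80834212, plus strand): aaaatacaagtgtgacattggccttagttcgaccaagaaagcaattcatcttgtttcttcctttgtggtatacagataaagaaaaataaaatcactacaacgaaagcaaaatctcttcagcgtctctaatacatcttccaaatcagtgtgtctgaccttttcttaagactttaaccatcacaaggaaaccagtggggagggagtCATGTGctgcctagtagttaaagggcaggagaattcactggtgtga
Dct (chr14:118052247-118052496, minus strand): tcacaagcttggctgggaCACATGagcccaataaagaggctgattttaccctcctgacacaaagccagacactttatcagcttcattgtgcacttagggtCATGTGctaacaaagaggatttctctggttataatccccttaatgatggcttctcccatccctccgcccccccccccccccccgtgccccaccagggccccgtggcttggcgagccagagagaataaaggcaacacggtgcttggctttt
Oca2 (chr7:56239509-56239758, plus strand): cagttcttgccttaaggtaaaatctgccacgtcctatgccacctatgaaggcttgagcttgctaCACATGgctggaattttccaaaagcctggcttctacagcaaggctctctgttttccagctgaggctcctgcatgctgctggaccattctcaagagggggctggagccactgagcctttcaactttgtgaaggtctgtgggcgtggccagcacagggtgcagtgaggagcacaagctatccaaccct
Mitf (chr6:97991533-97991782, plus strand): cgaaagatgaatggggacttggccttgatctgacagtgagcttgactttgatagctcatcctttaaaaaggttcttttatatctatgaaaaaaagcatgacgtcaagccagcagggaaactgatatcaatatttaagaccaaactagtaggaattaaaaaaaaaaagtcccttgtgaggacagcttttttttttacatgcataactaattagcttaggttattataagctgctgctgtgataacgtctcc
Over the 32817 promoter windows of this length, 12.3% held CATGTG on either strand. The longer form TCATGTG, which contains CATGTG, was in 3.25% of all windows and in those of Tyr, Tyrp1 and Dct. Its first base lay 22 bases before the start of Tyr and 47 bases before that of Tyrp1. In Dct it occurred at 232 bases, on the reverse strand, and at 151 bases. Oca2 carried CATGTG alone, on the reverse strand, 186 bases before the start. None of the 3 Mitf windows held CATGTG (nor, therefore, its longer form), the palindromic E-box CACGTG (6.02% of windows) or the SOX-type motifs ACAAAG (16.5%) and ACAATG (10.7%). Of the other windows, ACAAAG was in those of Dct (at 2 positions), Tyrp1 and Oca2, and ACAATG in that of Dct. These matches describe letters in a window, and binding was not measured.

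The deposited values were FPKM, fragments per kilobase of exon relative to all mapped fragments, a level per length. Comparisons between genes hold only as far as the listed values do, since some housekeeping genes that cells use at high level were listed low, such as Gapdh at a mean of 5.56 FPKM and Ppia at 2.38 FPKM in ACT + IL-2, beside Actb at 818 FPKM. Ranks below are ranks among the listed values. From the steps between low values, the libraries were estimated at 20800000 to 24500000 mapped fragments. At this depth, the least abundant of the 10 genes, Gpr143, stood on about 219 to 887 reads and Pmel on about 33653 to 78740, as estimated with GENCODE exon lengths. These estimates are approximate, since with those lengths the listed genes would hold 81.7% to 105% of the estimated fragments, over 100% in 4 of the 6 libraries. The summed FPKM was lowest in ACT + IL-2 replicate 2, at 176420 against 217581 to 246514 in the others. The groups were compared with limma on log2(FPKM + 1) over the 14172 genes whose mean FPKM reached 0.1, and p-values were adjusted by Benjamini-Hochberg over all of them, with a threshold of 0.05. Of these genes, 20.7% were called higher and 8.28% lower in ACT + NKTR-214, and 71.5% of the calls were higher. That split depended on scaling, with 39.7% of calls higher after scaling to a common sum, 49.0% at a common 75th percentile, 52.0% by median of ratios, 37.0% after quantile normalization, 62.8% with the housekeeping list and 50.1% without ACT + IL-2 replicate 2. Under the 5 scalings the calls lower numbered 2376 to 4549, against 1173, and the calls higher 2669 to 4014, against 2940. The median change over all genes shifted by -0.13 on the log2 scale after scaling to a common sum and by -0.15 after quantile normalization.

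The melanocyte lineage genes were lower in ACT + NKTR-214. Of the 10 genes, 8 were called lower and 0 higher, where 8.28% of all genes tested were called lower. Under the 5 scalings all 10 were called lower, and the share of all genes called lower was larger too, at 31.3% (common sum), 24.7% (75th percentile), 22.9% (median of ratios), 32.1% (quantile normalization) and 16.8% (housekeeping list). Their median log2 fold change was -0.90, against 0.05 for all genes tested. For all 10, each ACT + NKTR-214 tumor lay below each ACT + IL-2 tumor, which held for 15.3% of the genes tested. The sizes were unequal: Mitf and Gpr143 fell most, and Sox10, though called, had the smallest change. All 10 passed the filter on low values, and all 10 fold changes were negative under each of the 16 alternative settings tried. The number called was less stable, ranging from 2 with no minimum expression to 10. It was 5 without ACT + IL-2 replicate 3, ACT + NKTR-214 replicate 1 or ACT + NKTR-214 replicate 2. The share of all genes called lower moved too, to 1.85% with no minimum and to 4.47%, 6.89% and 4.83% in those 3 fits. That share was 14.0% without ACT + IL-2 replicate 2, where all 10 were called. In bulk tumor RNA, fewer melanoma cells and less RNA of a gene per melanoma cell cannot be told apart.

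**Figure D1:**
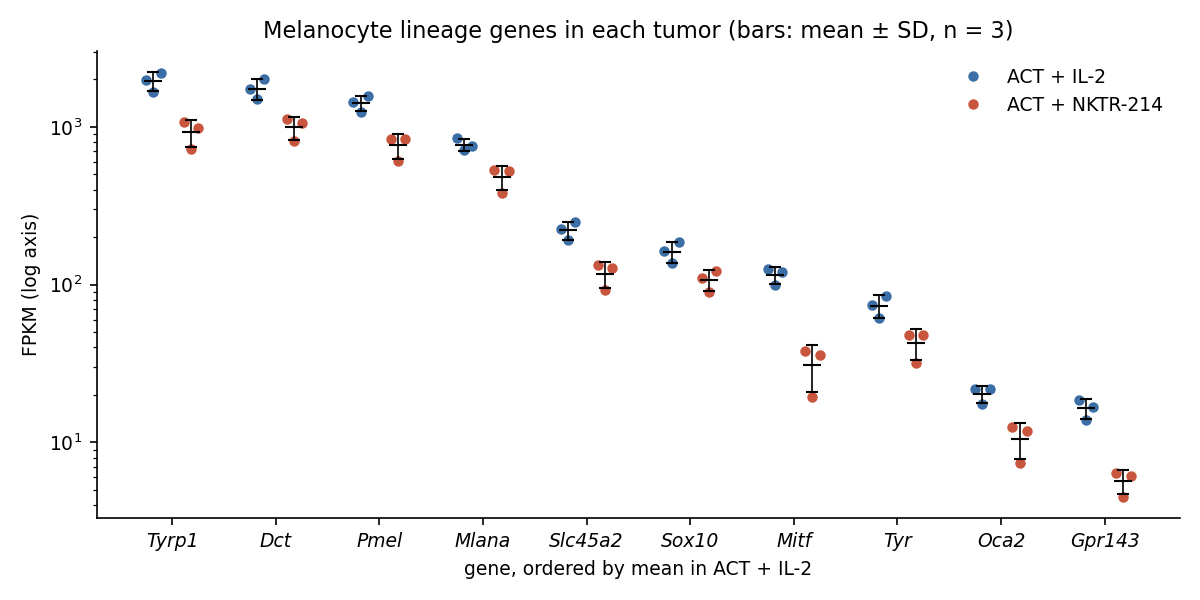
FPKM (log axis) of the 10 melanocyte lineage genes in each tumor, ordered by their mean in ACT + IL-2, with points for tumors and bars for mean ± SD (n = 3 per group). In every gene the 3 ACT + NKTR-214 tumors sit below the 3 ACT + IL-2 tumors, and the gap is widest in Mitf.

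Mitf (chr6:97807052-98021349 on GRCm38, plus strand, GENCODE vM21) was the gene with the largest change. It measured 126, 99.3 and 120 FPKM in the ACT + IL-2 tumors and 38.2, 19.4 and 35.7 FPKM in the ACT + NKTR-214 tumors. The highest ACT + NKTR-214 tumor was therefore well under the lowest ACT + IL-2 tumor. The mean fell from 115 ± 14.2 to 31.1 ± 10.2 FPKM (SD over 3 tumors per group), to 27.0% of the ACT + IL-2 level. On the log2 scale the change was -1.91 (SE 0.22, limma adjusted p = 7.65e-06), and it stayed between -2.09 and -1.61 with a call in all 16 alternatives. Mitf ranked between 187 and 195 among all entries by FPKM in the ACT + IL-2 tumors and between 1159 and 2871 in the ACT + NKTR-214 tumors. GENCODE lists 8 transcripts of Mitf, and the gene-level value does not separate the melanocyte form from the forms used in other cells.

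Sox10 (chr15:79154908-79165240, minus strand), the neural crest factor upstream of Mitf, changed least. It was at 162, 138 and 186 FPKM in ACT + IL-2 and at 110, 90.3 and 122 FPKM in ACT + NKTR-214. The groups did not overlap, but the gap between the nearest tumors was small. The change was -0.59 (SE 0.19, limma adjusted p = 0.026), which left 66.3% of the ACT + IL-2 mean. Sox10 lost its call when ACT + IL-2 replicate 3 (adjusted p = 0.15), ACT + NKTR-214 replicate 1 (0.065) or ACT + NKTR-214 replicate 2 (0.17) was left out of the limma fit.

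Pmel (chr10:128704195-128720238, plus strand) encodes gp100, the target of the transferred T cells. It was present in every tumor at high level, with 1443, 1241 and 1564 FPKM in ACT + IL-2 and 841, 605 and 842 FPKM in ACT + NKTR-214. The ACT + NKTR-214 tumors thus still carried the antigen's transcript at ranks 17, 25 and 14 of all entries, against ranks 4, 4 and 3 in ACT + IL-2. Pmel took 0.625%, 0.703% and 0.717% of the summed FPKM in the ACT + IL-2 tumors and 0.347%, 0.246% and 0.387% in the ACT + NKTR-214 tumors. The mean fell from 1416 ± 163 to 763 ± 136 FPKM (SD, n = 3 each), to 53.9% of the ACT + IL-2 level. The log2 change was -0.90 (95% interval -1.53 to -0.28, limma adjusted p = 0.030). That limma adjusted p was 0.0018 without the trend of spread with level, and 0.69 with no minimum expression. The call held in 2 of the 6 fits that left out 1 tumor, those without ACT + IL-2 replicate 1 or 2, and adjusted p ranged from 0.065 to 0.17 in the other 4, where the change was -0.98 to -0.74. On the genome 6.06% of the exon bases of Pmel overlap Cdk2 and Dgka on the other strand. Whether the counting used strand is not given in the sources used here. Cdk2, a cell cycle kinase gene and known MITF target, was itself called lower (-1.11, limma adjusted p = 0.00026). The overlap is a limit on the value of Cdk2 too, which is counted among the MITF targets below.

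Mlana (chr19:29697824-29708634, plus strand) encodes Melan-A, a melanosomal membrane protein that is the MART-1 antigen in human melanoma. Its values were 849, 711 and 753 FPKM in ACT + IL-2 and 535, 382 and 528 FPKM in ACT + NKTR-214. The groups did not overlap, yet the change of -0.69 (95% interval -1.23 to -0.15) missed the threshold, with a limma adjusted p of 0.053. It passed in 10 of the 16 alternatives. The limma adjusted p was 0.0071 without the trend of spread with level, and 0.44 with no minimum expression.

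The enzymes of melanin synthesis followed. Tyr (chr7:87424771-87493512, minus strand), the rate-limiting tyrosinase, measured 74.7, 61.3 and 85.0 FPKM in ACT + IL-2 and 48.2, 31.8 and 48.2 FPKM in ACT + NKTR-214. It fell by 0.78 on the log2 scale (SE 0.19, limma adjusted p = 0.0047). Tyrp1 (chr4:80834123-80851719, plus strand), the tyrosinase-related protein that acts late in eumelanin synthesis, held rank 1 of all entries in all 3 ACT + IL-2 tumors, at 1989, 1669 and 2209 FPKM. In ACT + NKTR-214 it stood at 1077, 726 and 985 FPKM, at ranks 8, 21 and 7. The change of Tyrp1 was -1.08 (SE 0.32, limma adjusted p = 0.018), and it lost the call in 3 of the 6 fits with 1 tumor left out, those without ACT + IL-2 replicate 3 (adjusted p = 0.084), ACT + NKTR-214 replicate 1 (0.052) or ACT + NKTR-214 replicate 2 (0.096). Dct (chr14:118012790-118052244, minus strand), the dopachrome tautomerase, had 1733, 1494 and 2016 FPKM in ACT + IL-2 against 1113, 809 and 1061 FPKM in ACT + NKTR-214. Every ACT + NKTR-214 tumor was below every ACT + IL-2 tumor in Dct, but its change of -0.82 (95% interval -1.48 to -0.15) did not pass, with a limma adjusted p of 0.063. Of the 3 enzymes, Tyr alone kept its call in every fit with 1 tumor left out. Without limma's trend of spread with level, all 3 were called (limma adjusted p 0.00085 for Tyrp1, 0.0035 for Dct, 0.0086 for Tyr). With no minimum expression, the limma adjusted p was 0.0995 for Tyr, 0.80 for Tyrp1 and 0.90 for Dct.

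The transporters and the receptor of the melanosome membrane were also called lower. Slc45a2 (chr15:11000721-11029233, plus strand), which helps to keep melanosome pH neutral, had 225, 191 and 249 FPKM in ACT + IL-2 and 133, 92.4 and 127 FPKM in ACT + NKTR-214. Its change was -0.92 (SE 0.20, limma adjusted p = 0.0023). Oca2 (chr7:56239760-56536518, plus strand), a melanosomal anion channel protein, had 21.7, 17.4 and 21.7 FPKM in ACT + IL-2 and 12.5, 7.45 and 11.8 FPKM in ACT + NKTR-214. Its change was -0.90 (SE 0.18, limma adjusted p = 0.0012), the same size as that of Pmel at a level far lower. Gpr143 (chrX:152781921-152808646, plus strand), the receptor affected in ocular albinism, had 18.7, 13.9 and 16.7 FPKM in ACT + IL-2 and 6.44, 4.54 and 6.16 FPKM in ACT + NKTR-214. It changed by -1.38 (SE 0.16, limma adjusted p = 1.28e-05), which left 34.8% of the ACT + IL-2 mean. Slc45a2, Oca2 and Gpr143, like Mitf and Tyr, were called in 6 of 6 fits with 1 tumor left out.

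**Figure D2:**
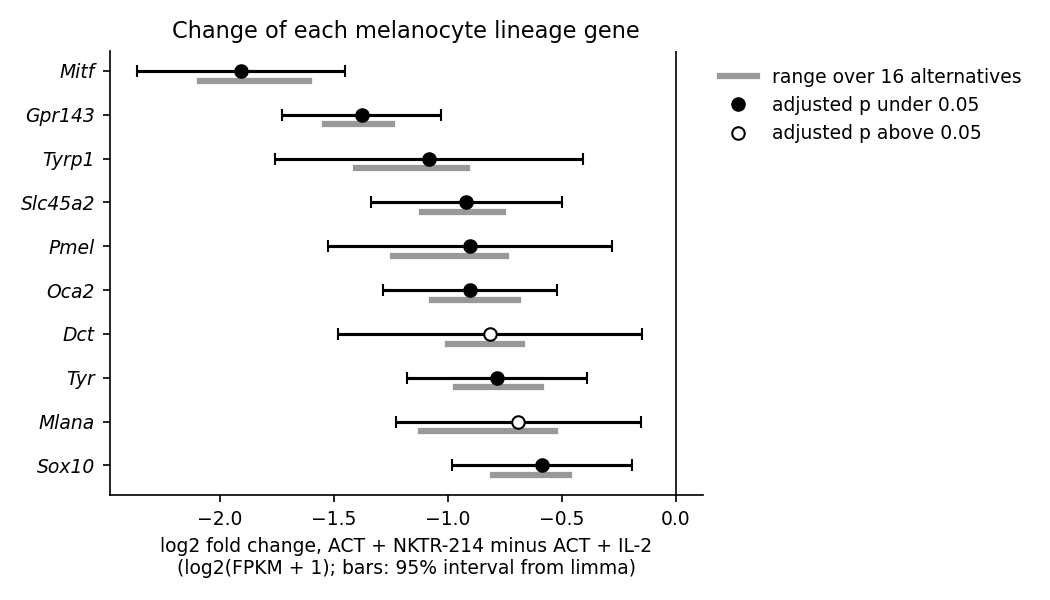
Log2 fold change of each gene, ACT + NKTR-214 minus ACT + IL-2, with the 95% interval from limma (black; filled where the adjusted p was under 0.05) and the range over 16 alternative settings (grey). Mitf lies at -1.91, Sox10 at -0.59, and the open points are Dct and Mlana.

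The order of levels was nearly the same in both groups. In ACT + IL-2 it ran Tyrp1, Dct, Pmel, Mlana, Slc45a2, Sox10, Mitf, Tyr, Oca2 and Gpr143, from 1956 to 16.4 FPKM on average. Neighbours overlapped between tumors for Tyrp1 and Dct, Dct and Pmel, and Oca2 and Gpr143. In ACT + NKTR-214, Dct (994 FPKM on average) stood above Tyrp1 (930 FPKM), and Tyr (42.7 FPKM) above Mitf (31.1 FPKM). The rest of the order was unchanged, and the overlapping neighbours there were Dct and Tyrp1, Tyrp1 and Pmel, Slc45a2 and Sox10, and Tyr and Mitf. Within each tumor, though, the gene with the higher group mean was above its neighbour in 3 of 3 tumors for every such pair in both groups. For example, Mitf exceeded Tyr in all 3 ACT + IL-2 tumors and was below it in all 3 ACT + NKTR-214 tumors.

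Ratios within a tumor do not depend on any scaling that multiplies a library by 1 factor, though quantile normalization can change them. For the ratio of Pmel to each of the other 9 genes, an exact permutation test (two-sided) can reach no p below 0.1 with 3 tumors per group, so that none could pass 0.05. Pmel per Mitf was 11.4, 12.5 and 13.0 in ACT + IL-2 and 22.0, 31.1 and 23.6 in ACT + NKTR-214, a log2 difference of 1.04. The groups did not overlap (exact permutation p = 0.1, adjusted over the 9 ratios 0.18), and all 3 ACT + NKTR-214 tumors had more Pmel per Mitf than any ACT + IL-2 tumor. Pmel per Gpr143 was 77.2, 89.4 and 93.8 in ACT + IL-2 and 131, 133 and 137 in ACT + NKTR-214 (log2 difference 0.63). Pmel per Sox10 lay the other way, at 8.89, 8.99 and 8.42 in ACT + IL-2 and 7.63, 6.71 and 6.89 in ACT + NKTR-214 (-0.31). Pmel per Mlana also was lower, at 1.70, 1.75 and 2.08 in ACT + IL-2 and 1.57, 1.59 and 1.59 in ACT + NKTR-214. That difference of -0.21 shrank to -0.12 without ACT + IL-2 replicate 3. Pmel per Tyrp1 was higher by 0.18. In these 5 ratios the values of the groups did not overlap. They overlapped for Pmel per Tyr (-0.10), Dct (-0.09), Slc45a2 (0.02) and Oca2 (0.07), where exact permutation p ranged from 0.2 to 0.5.

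**Figure D3:**
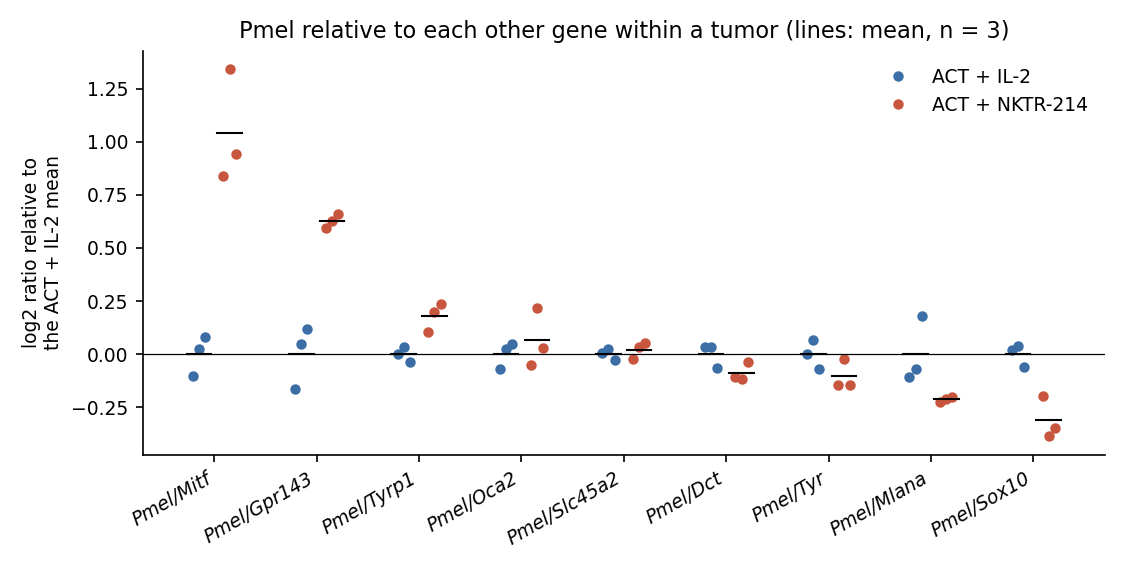
Log2 ratio of Pmel FPKM to that of each other gene within a tumor, relative to the ACT + IL-2 mean, with points for tumors and lines for means (n = 3 per group). Pmel per Mitf (difference 1.04) and Pmel per Gpr143 (0.63) are shifted up in the 3 ACT + NKTR-214 tumors, and Pmel per Sox10 (-0.31) is shifted down.

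Tumors of the same group also differed among themselves. Replicate 2 of ACT + NKTR-214 had the lowest value of its group in 10 of 10 genes, and so did replicate 2 of ACT + IL-2. The 2 cases were unlike in the summed FPKM. As a share of it, the 10 genes held 2.87%, 3.19% and 3.31% in the ACT + IL-2 tumors, where replicate 2 was no longer lowest, and 1.62%, 1.12% and 1.73% in the ACT + NKTR-214 tumors, where replicate 2 was.

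Markers of several other cell types differed between the same groups. Of the leukocyte markers, 5 of 5 were called higher in ACT + NKTR-214, and their summed level was 85.5 to 212 FPKM in ACT + IL-2 and 485 to 920 FPKM in ACT + NKTR-214. Their most abundant gene, Cd52, averaged 55.4 and 287 FPKM. Of the T cell markers 8 of 8 were called higher, with sums of 23.8 to 58.9 and 273 to 548 FPKM and Thy1, which also marks the transferred cells, as the most abundant at 17.3 and 153 FPKM. Replicate 2 of ACT + NKTR-214, lowest in the lineage genes, was highest in both sums. Macrophage markers were called higher in 8 of 8 (sums 265 to 778 and 1056 to 1805 FPKM, led by C1qb). Fibroblast markers were called higher in 5 of 6, with sums that overlapped (216 to 645 and 578 to 1160 FPKM, led by Col3a1). Of the endothelial markers 1 of 5 was called higher (23.2 to 52.2 and 36.7 to 73.3 FPKM, led by Pecam1), and of the adipocyte markers 1 of 4 (1.03 to 10.2 and 3.07 to 26.0 FPKM, led by Adipoq). Both sums overlapped between the groups, and both counts are near the 20.7% of all genes called higher. Muscle markers were called lower in 4 of 5, against 8.28% of all genes, though their sums overlapped (34.5 to 90.8 and 28.2 to 41.7 FPKM, led by Acta1), as did the tumors of the groups in each of the 5 genes. Their part in the change of the lineage genes was not tested. The leukocyte markers differed between the groups by a median of 2.41 on the log2 scale.

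**Figure D4:**
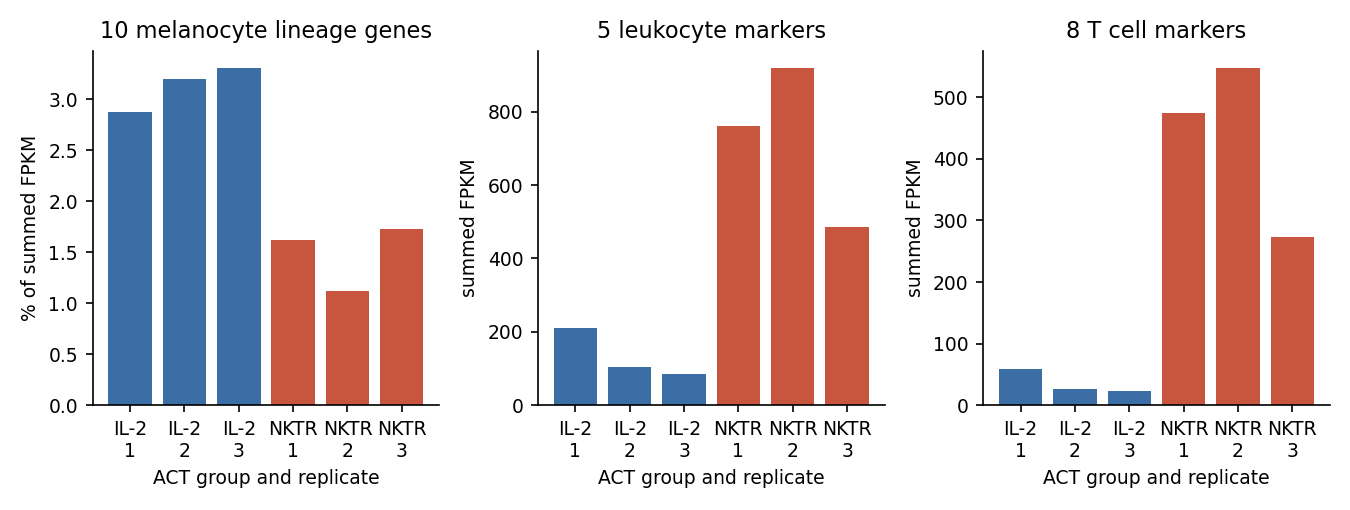
Share of the summed FPKM taken by the 10 melanocyte lineage genes (left), and summed FPKM of 5 leukocyte markers (middle) and 8 T cell markers (right), with 1 bar per tumor. The ACT + NKTR-214 tumors have 1.12% to 1.73% of FPKM in the lineage genes against 2.87% to 3.31% in ACT + IL-2, and the tumor with the least, replicate 2, has the highest marker sums.

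Other cells that use the same genes were checked too. Skin keratinocyte markers, which would come with normal melanocytes of the skin, summed to 0.145 to 0.703 FPKM in ACT + IL-2 and 0.166 to 1.41 FPKM in ACT + NKTR-214, with Krt5 the most abundant and Krt1 at 0 in every tumor. Schwann cell markers, whose cells also use Sox10, summed to 11.5 to 14.6 and 16.7 to 19.7 FPKM, and 3 of 7 were called higher (20.7% of all genes). The most abundant of them, Mbp, averaged 8.75 and 10.6 FPKM. The part of these cells in the Sox10 values was not tested.

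Lists of other genes of the lineage held calls in both directions. Of 96 such genes, 90 were tested, of which 27 were called higher and 18 lower (20.7% and 8.28% of all genes tested), and their median log2 fold change was 0.09. The balance varied with scaling, from 26 higher and 31 lower after scaling to a common sum and 25 and 31 after quantile normalization, through 27 and 28 at a common 75th percentile and 28 and 28 by median of ratios, to 31 and 23 with the housekeeping list. All genes tested shifted likewise, with 31.3% called lower after scaling to a common sum, 32.1% after quantile normalization, 24.7% at the 75th percentile, 22.9% by median of ratios and 16.8% with the housekeeping list, so the counts of 31 lower are near the background. Among the regulators, 15 of 18 were tested, with 3 called higher, 5 lower and a median of -0.22. The 3 called higher are near the 20.7% of all genes. The number called lower was 8 under 4 of the 5 scalings, where 22.9% to 32.1% of all genes were called lower. It was 2 with ACT + IL-2 replicate 3 left out (4.47% of all genes) and 3 with ACT + NKTR-214 replicate 2 left out (4.83%). Pax3, the partner of SOX10 on the Mitf promoter, was called lower, from 36.3, 32.3 and 42.7 FPKM in ACT + IL-2 to 20.0, 14.0 and 20.8 FPKM in ACT + NKTR-214 (-0.996, limma adjusted p = 0.00034). Sox9 also was called lower (-0.61, limma adjusted p = 0.0045). Those called higher were Tfec (2.10), a relative of Mitf that macrophages express, Irf4 (1.74), which lymphocytes use as well, and Lef1 (1.60), which T cells also express. The receptor gene Kit had a change of -0.47 with a limma adjusted p of 0.052.

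Genes of melanosome biogenesis and transport were all tested, and of 38, 3 were called higher and 9 lower, with a median of -0.11, against 20.7% and 8.28% of all genes. Under scaling to a common sum, a common 75th percentile, median of ratios or quantile normalization the number called lower was 16 to 18, while the share of all genes called lower rose to 22.9% to 32.1%. The largest falls were those of Trpm1, a cation channel gene of melanocytes, from a mean of 59.3 to 22.0 FPKM (-1.45, limma adjusted p = 8.08e-05), and Slc24a5, the melanosomal ion exchanger, from 163 to 68.1 FPKM (-1.27, limma adjusted p = 0.00014). Of the machinery that moves melanosomes along actin, Rab27a (-0.55) and Myo5a (-0.76) were called lower, while their linker Mlph had -0.12 with a limma adjusted p of 0.67. These 3 were named after their values were seen. The largest rises were those of Tpcn2, an endolysosomal channel gene, from 5.03 to 11.0 FPKM (1.001, limma adjusted p = 0.0002), and Slc7a11, the cystine transporter, from 1.88 to 4.04 FPKM (0.81, limma adjusted p = 0.00085).

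Of the MITF targets outside pigment synthesis, 17 of 18 were tested, and 6 were called higher and 6 lower, where the shares of all genes were 20.7% and 8.28%. Their median of 0.03 turned negative in 7 of the 16 alternatives, by scaling to a common sum (-0.15), a common 75th percentile (-0.06), median of ratios (-0.04) or quantile normalization (-0.08), with a minimum mean FPKM of 1 (-0.10), and with ACT + IL-2 replicate 2 (-0.12) or ACT + NKTR-214 replicate 1 (-0.04) left out. Called lower most were Ppargc1a, a coactivator of mitochondrial genes, from 37.3 to 13.2 FPKM (-1.47, limma adjusted p = 8.47e-05), and Trpm1. Called higher most were Acp5 (2.25, limma adjusted p = 1.502e-05) and Ctsk (1.51, limma adjusted p = 4.95e-05), both known as MITF targets in osteoclasts and expressed by macrophages. Their values were highest in ACT + NKTR-214 replicate 2, the tumor with the highest macrophage marker sum, at 46.0 and 23.1 FPKM. The part of macrophages in these values was not tested.

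The list of dedifferentiation and neural crest genes, which melanoma cells low in MITF can express, moved up: 13 of 17 tested (of 18) were called higher and 1, Sox9, lower, with a median of 0.71, where 20.7% of all genes tested were called higher. The largest were Tgfbi, an extracellular matrix gene (1.496, limma adjusted p = 0.00049), and L1cam, a neural adhesion gene (0.96, limma adjusted p = 0.00035). The count was 8 of 17 without ACT + IL-2 replicate 2, where 2005 of all 14227 genes tested were called higher. With no minimum expression it was 1 of 18, where 1193 of 21358 were. Several members, Fn1, Pdgfrb and Tgfbi among them, are expressed by fibroblasts or macrophages, whose marker sums are given above, and the part of those cells was not tested. The receptor gene Ngfr, which marks neural crest-like melanoma cells, was at 0.0703 to 0.234 FPKM in ACT + IL-2 and 0.214 to 0.297 FPKM in ACT + NKTR-214, and its limma adjusted p was 0.25.

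Of the other melanoma-associated surface and secreted genes, 7 of 8 were tested, and the adhesion genes Mcam (0.65, limma adjusted p = 0.015) and Alcam (0.94, limma adjusted p = 0.00035) were called higher, 2 of 7 where 20.7% of all genes were. Alcam was called in all 16 alternatives and Mcam in 14. A list of 14 housekeeping genes had a median of 0.01 (-0.14 after scaling to a common sum or quantile normalization), with Rplp0 called higher (0.46) and Tfrc lower (-0.88). Of the 16 alternatives, 11 called Rplp0 higher and 15 called Tfrc lower.

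**Figure D5:**
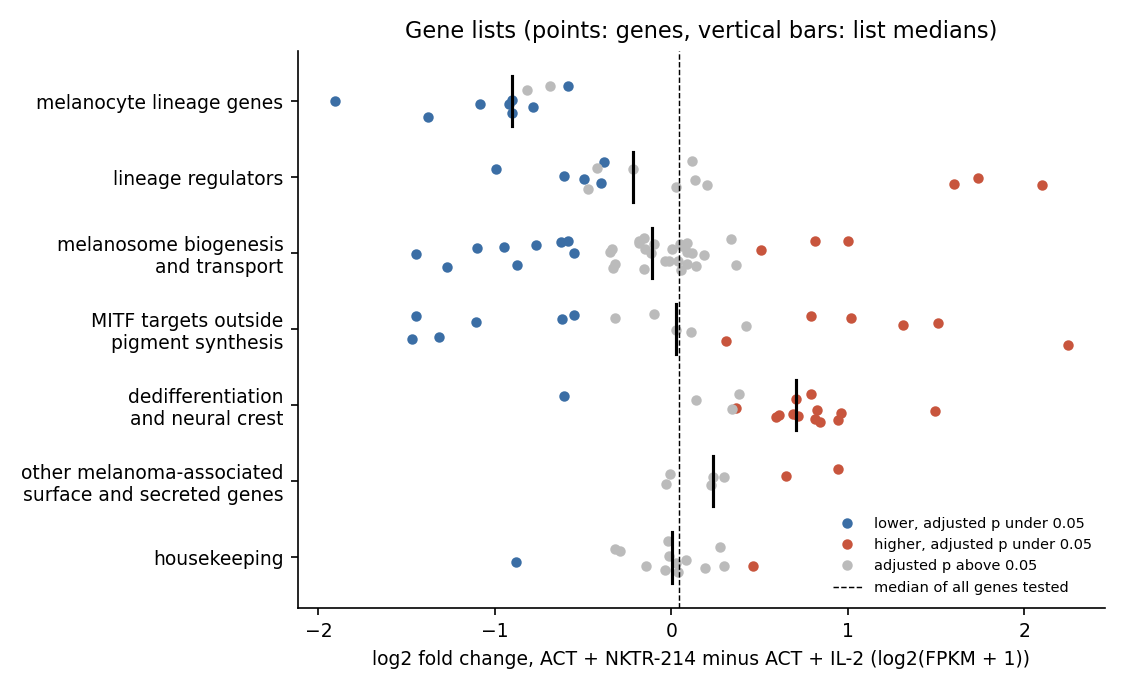
Log2 fold change of each tested gene in 7 lists (points, coloured by call), with list medians (vertical bars) and the median of all genes tested (dashed line, 0.05). The 10 melanocyte lineage genes all lie left of 0 with a median of -0.90, the housekeeping list centres on 0.01 and the dedifferentiation and neural crest list on 0.71.

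The genes most like Pmel over the 6 tumors were found by Pearson's r of log2(FPKM + 1) among the 11557 other genes whose mean FPKM reached 1. Outside the 10 lineage genes, the 5 highest were Nckap1, of the actin-regulating WAVE complex, Atm, a DNA damage kinase gene, Pianp, Qser1 and Pax3, each with r between 0.9981 and 0.9995. Nckap1 had 81.4, 70.1 and 89.5 FPKM in ACT + IL-2 and 47.5, 33.0 and 48.0 FPKM in ACT + NKTR-214. The other 9 lineage genes had r from 0.9752 (Mlana) to 0.999 (Slc45a2), at places 4 to 371 of the 11557. With 2 groups of 3 tumors, any gene that differs between the groups as Pmel does gets a high r, so these values describe likeness in these tumors and carry no p.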

How the data were processed

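RNA was extracted from whole tumors with an RNeasy kit and sequenced as 50-base single-end reads. The authors aligned reads to GRCm38 with HISAT2 2.0.4 and quantified genes with HTSeq, and the values they deposited are FPKM, in 1 column per tumor. The gene annotation and the use of strand are not given in the sources used here. Depth was estimated from whole-number steps in the low FPKM values of genes with 1 GENCODE transcript, and 59.4% to 66.8% of low values came out whole within 0.05 reads.

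The analysis took log2(FPKM + 1), a scale that understates changes of low genes, and used limma 3.58.1 in R 4.3.3 (eBayes with a trend), with no block. P-values rest on the spread between 3 tumors per group, which the labels call biological replicates. In limma that spread is moderated toward the spread of other genes of like level, so it is not that of the gene alone. Positions and exon overlaps are from GENCODE vM21, promoters from RefSeq.

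The 10 genes (the members), the lists and the tests were chosen with earlier results of these data known. Named were all 10 members, in each list the 2 largest called changes per direction (every called gene where 5 or fewer passed), the 5 genes outside the members most like Pmel and the most abundant marker per list. Cdk2, Lef1, Kit, Rab27a, Myo5a, Mlph and Ngfr, and the examples given for fibroblasts, were chosen after their values were seen. Alternatives were another pseudocount, 2 other minimums, 5 scalings, no trend, the replicate number as a block, and each tumor left out.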

Additional observations from a re-analysis of the deposited data

How the results depend on the processing

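The 10 melanocyte lineage genes (the members) had negative fold changes under all 16 alternatives, and 0 were called higher under any. With no minimum expression, 2 members were called lower (Mitf and Gpr143), 13 other lineage genes higher and 8 lower. Of all 21358 genes in that fit, 1193 were called higher and 395 (1.85%) lower. Of the members, 10 were called lower with the pseudocount 0.1, with the minimum raised to a mean FPKM of 1, without the trend and with each of the 5 scalings. Leaving out 1 tumor gave 5 to 10 members called lower, where 4.47% to 14.0% of all genes were called lower. Dct, Mlana, Pmel, Sox10 and Tyrp1 were not called without ACT + IL-2 replicate 3, ACT + NKTR-214 replicate 1 or ACT + NKTR-214 replicate 2, and Dct, Mlana and Pmel were not called without ACT + NKTR-214 replicate 3. Without ACT + IL-2 replicate 1, 9 were called, Mlana being the exception. The other lineage genes called lower numbered 31 after scaling to a common sum, 28 at a common 75th percentile, 28 by median of ratios and 31 after quantile normalization. The log2 difference in Pmel per Oca2 turned from 0.07 to -5.3e-05 with a pseudocount of 1, and it ran from -0.01011 (without ACT + NKTR-214 replicate 2) to 0.1245 (without replicate 1 of that group) with 1 tumor left out. Pmel per Slc45a2, at 0.02, ran from 0.0055 to 0.044 with 1 tumor left out. The fit with no minimum used the same tumors and gave the members the same fold changes. What differed was the set of genes, on which limma's trend and the adjustment rest. Fewer tumors entered the fits that left 1 out. The cause of these shifts was not tested further.

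The replicate numbers did not pair the tumors: deviations of tumors with the same number correlated at -0.21, -0.067 and 0.40, and tumors 1 of ACT + IL-2 and 2 of ACT + NKTR-214 correlated best, at 0.59. With the replicate block, 10 members were called lower, and over all genes 3090 were called higher and 1227 lower, against 2940 and 1173 without it. Read counts were not used here, so counting error was not separated from the spread between tumors.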
